A study of Mus musculus with 12 samples.

Results

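The comparison of mouse striata that carried both a Huntington's disease knock-in and a deletion of SUMO-1 with wild-type striata rested on 6 of the 12 RNA-seq libraries of the series, 3 of each genotype, and took in every gene with enough reads to be tested, 17796 of 53465. The members were chosen by genotype label alone. Q175HD/SUMO-KO animals were SUMO-1 knockouts in the neo-deleted Q175 knock-in line, in which an expanded CAG repeat sits in the mouse huntingtin gene Htt and is driven by that gene's own promoter. The Q175HD animals used beside them carried that knock-in with SUMO-1 present (line B6J.129S1-Htttm1.1Mfc/190ChdiJ), SUMO-KO animals lacked SUMO-1 on an unexpanded Htt background, and WT animals carried neither change. All 4 genotypes were labelled C57/BL6, and the material was labelled striatal cells and described as total RNA of the striatum. The labels give neither age, sex nor the number of Htt copies changed, and whether each replicate was its own animal is not stated. The p-values therefore measure only the spread between these libraries. The comparison gives the combined difference of the disease knock-in and SUMO-1 loss, and the libraries of the single genotypes show where it departs from either one.

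The striatum consists largely of medium spiny projection neurons, GABAergic cells that fall into a direct pathway class, which expresses the dopamine receptor Drd1, dynorphin and substance P, and an indirect pathway class, which expresses Drd2, the adenosine receptor Adora2a and enkephalin. Mutant huntingtin lowers many genes of these neurons in mouse models and patients, and some developmental genes that Polycomb complexes keep silent in adult neurons have been reported to be derepressed. SUMO proteins are small ubiquitin-like modifiers that an E1, an E2 and E3 ligases attach to lysines and that SENP proteases remove, and Rasd2, also called Rhes, is a striatal GTPase described as promoting the sumoylation of mutant huntingtin.

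Reads assigned to genes summed to between 11237097 and 17226419 in the Q175HD/SUMO-KO libraries and between 11994900 and 13926488 in the WT libraries. Replicates differed by far more than sampling noise, with a chi-square of 8.916 to 29.54 per degree of freedom, so none was a library deposited again. Library 2 of both groups carried Xist, which silences an X chromosome in females (18386 reads in Q175HD/SUMO-KO 2 and 18092 in WT 2), and at most 2 reads of the Y-linked Ddx3y, so each group held 1 library of female type and 2 of male type. Mitochondrial transcripts took 11%, 9.95% and 13% of reads in Q175HD/SUMO-KO and 6.67%, 8.61% and 9.03% in WT, a gap without overlap that lay mostly in the 2 mitochondrial rRNAs (9.42%, 8.6% and 11% in Q175HD/SUMO-KO, against 5.12%, 6.88% and 7.23% in WT). Levels below are read counts scaled to the library total (CPM) on library sizes scaled by the trimmed mean of M-values (TMM). Calls came from edgeR's quasi-likelihood test, fitted to all 12 libraries, with a p under 0.05 after Benjamini-Hochberg adjustment over every gene tested. A number in brackets after a gene is its log2 fold change of Q175HD/SUMO-KO over WT, with the standard error (SE) where given, and a list's median is that of the log2 fold changes of its tested genes. In whole tissue, fewer cells of a type and less RNA per cell cannot be told apart.

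Htt, the SUMO paralogs and Rasd2 were read first. Htt (ENSMUSG00000029104, chromosome 5, 34761740 to 34912534, plus strand, GRCm38) was at 189.5, 218 and 159 CPM in Q175HD/SUMO-KO, against 284, 249 and 269.8 CPM in WT, lower in every Q175HD/SUMO-KO library than in any WT library (log2 fold change -0.51, SE 0.11, edgeR adjusted p = 0.0148). Leaving out WT 1 (edgeR adjusted p = 0.0622) or Q175HD/SUMO-KO 1 ended the Htt call. So did the mean of the cortical neuron genes as a covariate, where Htt was at -0.31 (edgeR adjusted p = 0.501). That mean was lower in every Q175HD/SUMO-KO library than in any WT library, so fits with it cannot fully separate cortical tissue from genotype. The deposited counts do not separate the expanded allele from the other. Of these paralogs, Sumo2 was at 15.9, 17.5 and 16.6 CPM in Q175HD/SUMO-KO, against 11.9, 13.4 and 12.8 CPM in WT (log2 fold change 0.39, SE 0.12), and Sumo3 was at 123, 132 and 139 CPM in Q175HD/SUMO-KO, against 76.9, 96.7 and 119.9 CPM in WT (0.43, SE 0.13). Both were higher in each Q175HD/SUMO-KO library than in each WT library, but neither passed (edgeR adjusted p = 0.0542 for Sumo2 and 0.0629 for Sumo3). Rasd2 fell to 340.1, 145 and 353 CPM in Q175HD/SUMO-KO, against 535, 576 and 713 CPM in WT (log2 fold change -1.12, SE 0.27, edgeR adjusted p = 0.0278). Replicate 2 of Q175HD/SUMO-KO held less than either of its fellows, and the call was lost in 3 of the 6 fits that left out 1 library (edgeR adjusted p at most 0.0764, without WT 3).

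Against WT, 599 genes rose and 903 fell in Q175HD/SUMO-KO, 1502 calls or 8.44% of the genes tested (3.37% higher, 5.07% lower), and 4336 genes had an unadjusted p under 0.05. Of the calls, 1485 (599 rises and 886 falls) had no overlap between the 2 groups, which held for 8.34% of all genes tested; called or not, 29.8% of genes did not overlap. Most changes were moderate. The rises had a median log2 fold change of 0.49 with 87 over 2-fold, and the falls one of -0.69 with 248 over 2-fold, beside a median of 0.05 over all genes. The genes that fell were long, with a median genomic span of 48.24 kb and 32.6% over 100 kb. Genes that rose had a median span of 19.08 kb and 10.5% over 100 kb, beside 19.23 kb and 13.4% for all genes tested. Median levels were 52.41 CPM for falls, 25.95 CPM for rises and 15.41 CPM for all genes tested. Protein-coding genes were 92.6%, 93.5% and 79.9% of these. Length was not tested apart from level or gene type. The number of calls was 682 without WT 1, 767 without WT 2, 674 without Q175HD/SUMO-KO 1 and 914 without Q175HD/SUMO-KO 3. Rises were 39.9% of the calls, and 30.1% with median-ratio size factors in place of TMM. The count was 293 (65 rises, 228 falls) with the mean of the cortical neuron genes as a covariate and 190 (26 rises, 164 falls) with WT 3 as the only WT library, which is assumed to vary like the other groups.

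**Figure D1:**
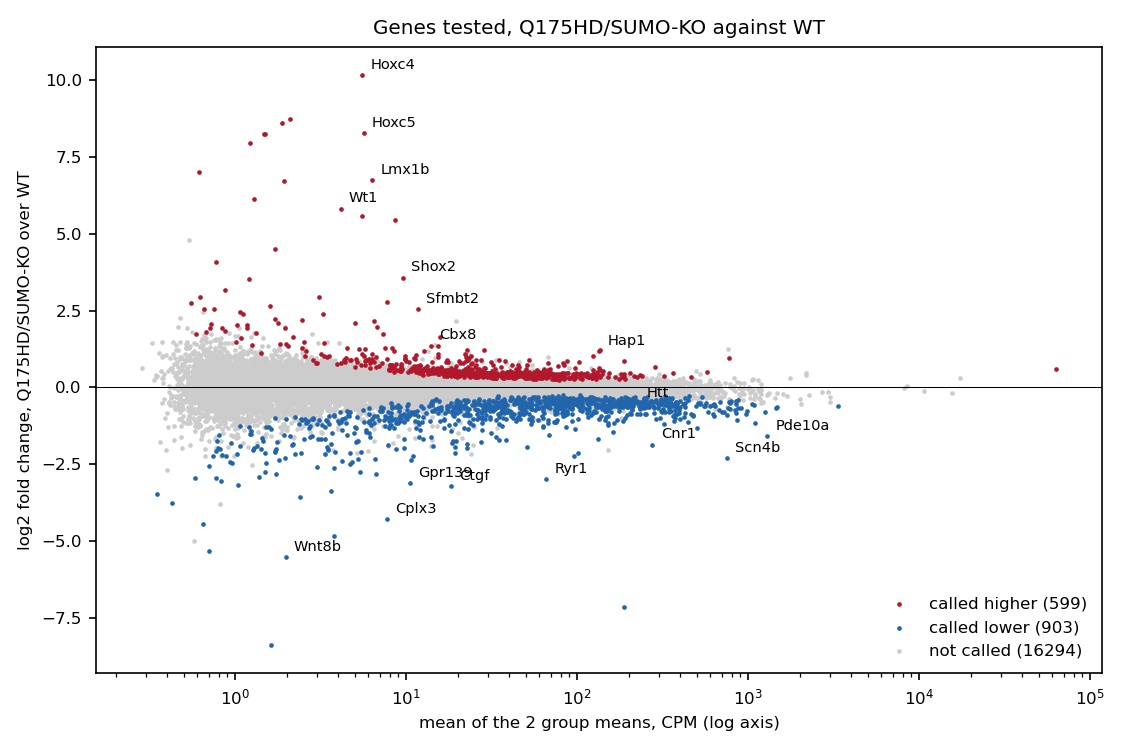
Each point is 1 of the 17796 genes tested, with the mean of the Q175HD/SUMO-KO and WT group means in CPM on a log axis and the fitted log2 fold change of Q175HD/SUMO-KO over WT on the vertical axis. Red points were called higher (599), blue points lower (903) and grey points not called. The labelled developmental factors Hoxc4, Hoxc5, Lmx1b and Wt1 lie high at low levels. So do others without a label, among them Hoxc8 (8.75), Onecut1 (8.59) and Hoxd8 (8.25), which lie above Lmx1b and Wt1. The fitted values of genes with 0 to 3 reads in a group depend on the prior count.

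Among the 47 gene lists, that of the medium spiny projection neurons, one of the largest, held the most falls by count. Of its 75 tested genes, 46 fell (61.3%, beside 5.07% of all genes tested) and 0 rose. A negative log2 fold change was found in 68, and the median was -0.66. The lists were chosen with earlier results of these data known. Ryr1 (ENSMUSG00000030592, chromosome 7, 29003344 to 29125179, minus strand), an intracellular calcium release channel, was at 14.8, 17.1 and 12.5 CPM in Q175HD/SUMO-KO, against 120.1, 118 and 112 CPM in WT, and the libraries of each group lay close together (log2 fold change -2.99, SE 0.14, edgeR adjusted p = 2.02e-07). Scn4b, a sodium channel beta subunit, was at 319, 102 and 338 CPM in Q175HD/SUMO-KO, against 931, 1258 and 1536 CPM in WT (log2 fold change -2.30, SE 0.37, edgeR adjusted p = 0.00475). Cnr1, the cannabinoid receptor, was at 139, 80 and 137 CPM in Q175HD/SUMO-KO, against 428, 433 and 434 CPM in WT (log2 fold change -1.86, SE 0.16, edgeR adjusted p = 4.69e-05). In these genes the 3 WT libraries lay close together or, for Scn4b, spread upward, while Q175HD/SUMO-KO 2 was the lowest for Scn4b and Cnr1 and not for Ryr1. Pde10a, the phosphodiesterase that breaks down cAMP and cGMP in these cells, fell to 728, 463 and 733 CPM in Q175HD/SUMO-KO, against 1909, 1850 and 2055 CPM in WT (log2 fold change -1.60, SE 0.15, edgeR adjusted p = 6.41e-05). Gpx6, a glutathione peroxidase, was almost lost, with 0.322, 0.168 and 0.24 CPM in Q175HD/SUMO-KO, against 4.86, 8.04 and 9.02 CPM in WT (log2 fold change -4.85, SE 0.47, edgeR adjusted p = 8.49e-05). Lrrc10b (-1.69), Ddit4l (-1.61), Actn2 (-1.12), Hpca (-0.81), Strn (-0.86) and the transcription factors Bcl11b (-0.79), Foxp1 (-0.47) and Rxrg (-0.69) were also called lower, on the log2 scale. Foxp2, another factor of these neurons, was at a mean of 109 CPM in Q175HD/SUMO-KO and 102 CPM in WT, and the G protein subunits Gnal (-0.36, SE 0.15) and Gng7 (-0.57, SE 0.18) did not pass. The calls of Ryr1, Scn4b, Cnr1, Pde10a, Gpx6, Lrrc10b and Ddit4l held in all 6 fits that left out 1 library. The list had 33 to 48 falls in those fits, 39 with the cortical mean as a covariate and 22 with WT 3 as the only WT library, with medians of -0.95 and -0.76.

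**Figure D2:**
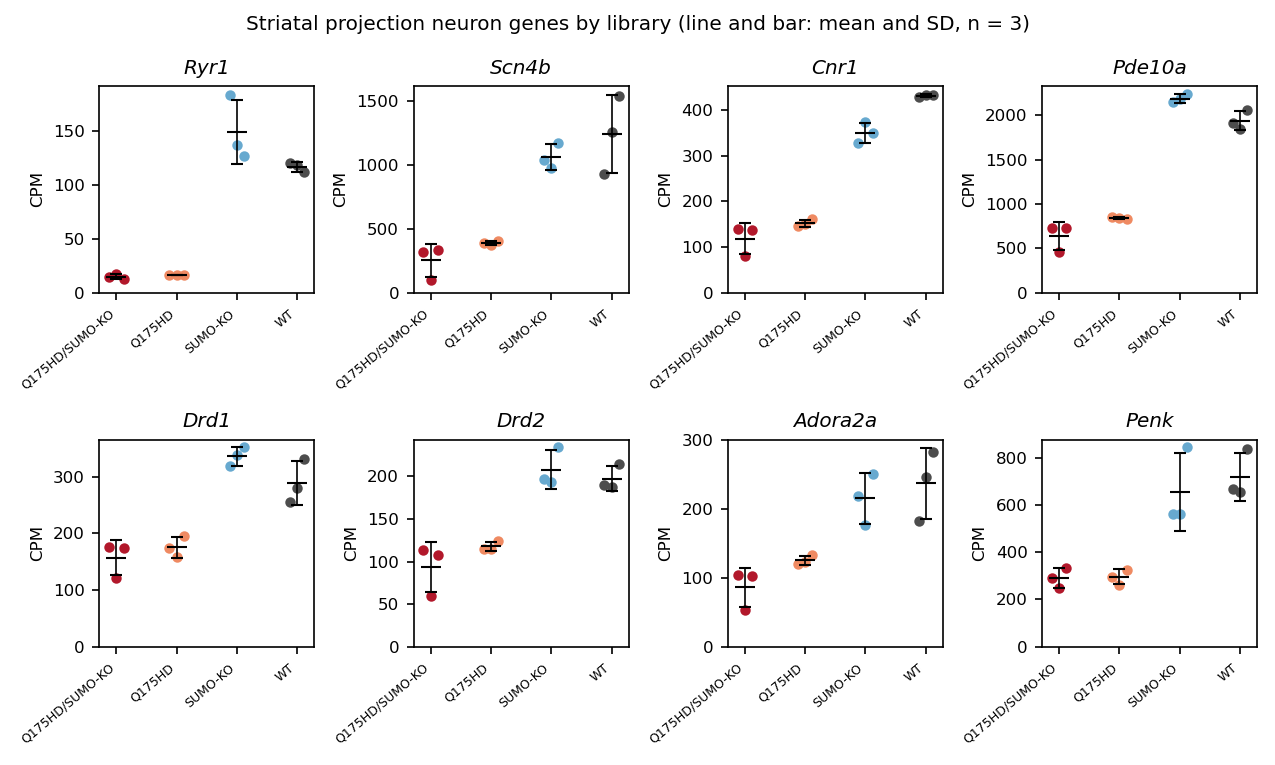
CPM of 8 striatal projection neuron genes in each library (points), with the mean and SD (n = 3) as a line and bar, for Q175HD/SUMO-KO, Q175HD, SUMO-KO and WT. For Ryr1 the 3 Q175HD/SUMO-KO libraries sit at 12.5 to 17.1 CPM and the 3 WT libraries at 112 to 120.1 CPM, and in all 8 panels no Q175HD/SUMO-KO library reaches a WT library.

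Both pathway classes of projection neurons held falls, and the list median was lower for the indirect than for the direct pathway, a difference that was not tested. Of 8 indirect pathway genes 6 fell (75%, beside 5.07% of all genes tested) and 0 rose, with a median log2 fold change of -1.04. Adora2a was at 104, 53 and 102 CPM in Q175HD/SUMO-KO, against 182, 246 and 283 CPM in WT (log2 fold change -1.46, SE 0.24, edgeR adjusted p = 0.00449). Penk, the enkephalin precursor, was at 291, 248 and 334 CPM in Q175HD/SUMO-KO, against 667, 656 and 837 CPM in WT (log2 fold change -1.31, SE 0.17, edgeR adjusted p = 0.000685). Drd2 was at 114, 59.5 and 108 CPM in Q175HD/SUMO-KO, against 190, 188 and 214 CPM in WT (log2 fold change -1.07, SE 0.18, edgeR adjusted p = 0.00463), and Gpr6 (-1.04), the delta opioid receptor Oprd1 (-1.04) and the kainate receptor subunit Grik3 (-0.83) also fell. No WT library of Adora2a, Penk or Drd2 overlapped a Q175HD/SUMO-KO library. Of 9 direct pathway genes, all of which are also on the projection neuron list, 3 fell (33.3%) and 0 rose, with a median of -0.38. The 3 were Drd1, the dynorphin precursor Pdyn and the muscarinic receptor Chrm4. Drd1 was at 176, 122 and 174 CPM in Q175HD/SUMO-KO, against 255, 280.5 and 331 CPM in WT (log2 fold change -0.88, SE 0.14, edgeR adjusted p = 0.00244), and Pdyn was at 46.7, 54.5 and 46 CPM in Q175HD/SUMO-KO, against 108, 90.9 and 108 CPM in WT (log2 fold change -1.06, SE 0.25, edgeR adjusted p = 0.0263). Tac1 (-0.15, SE 0.14), the substance P precursor, and the transcription factors Isl1 (0.38, SE 0.16) and Ebf1 (0.15, SE 0.11) did not pass. The Pdyn call was lost whichever 1 of the 6 libraries was left out (edgeR adjusted p at most 0.0946, without Q175HD/SUMO-KO 1). Without WT 1 the median of the direct pathway list was -0.215. The indirect pathway list had 6 falls in each of the 6 fits without 1 library and 5 with the cortical covariate.

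Calls among signalling genes downstream of the dopamine receptors were nearly all falls. Of 30 dopamine and cAMP genes 13 fell (43.3%, beside 5.07% of all genes tested) and 0 rose (median -0.51). Adcy5, the main striatal adenylyl cyclase, was at 727, 569 and 747 CPM in Q175HD/SUMO-KO, against 1408, 1427 and 1707 CPM in WT (log2 fold change -1.15, SE 0.14, edgeR adjusted p = 0.000404), Arpp19, a phosphatase 2A inhibitor, was at 209.7, 158 and 240.5 CPM in Q175HD/SUMO-KO, against 359, 436 and 429 CPM in WT (log2 fold change -1.01, SE 0.16, edgeR adjusted p = 0.00244), and Ppp1r1b, which encodes the phosphatase inhibitor DARPP-32, was at 622, 405 and 788 CPM in Q175HD/SUMO-KO, against 1028, 1019 and 1217 CPM in WT (log2 fold change -0.85, SE 0.20, edgeR adjusted p = 0.021). Adcy5 and Arpp19 were separated between the groups by wide margins, and Ppp1r1b was lowest in Q175HD/SUMO-KO 2 and highest of the 3 in Q175HD/SUMO-KO 3. The cyclases Adcy1 (-0.98), Adcy2 (-0.63) and Adcy9 (-0.50), the G protein subunit Gnao1 (-0.57) and the calcineurin subunit Ppp3ca (-0.63) were called lower. Among 18 cyclic nucleotide phosphodiesterases 4 fell (22.2%) and 0 rose (median -0.18): Pde10a, Pde1b (-1.05, SE 0.17), Pde8a (-0.71, SE 0.15) and Pde7b (-0.66, SE 0.14). The RGS list held RGS proteins, which speed the turning off of G proteins, and the RGS-binding protein Rgs7bp. Among its 17 genes 7 fell and 1 rose (median -0.53), so 47.1% were called, beside 8.44% of all genes tested. Rgs9 was at 281, 173 and 246 CPM in Q175HD/SUMO-KO, against 423, 539 and 540.1 CPM in WT (log2 fold change -1.10, SE 0.18, edgeR adjusted p = 0.00268), Rgs4 was at 287, 165 and 338 CPM in Q175HD/SUMO-KO, against 454, 594 and 566 CPM in WT (log2 fold change -1.03, SE 0.21, edgeR adjusted p = 0.013), and Rgs14 (-0.99), Rgs7bp (-0.88), Rgs6 (-0.81), Rgs11 (-0.77) and Rgs20 (-0.53) fell too. Rgs19 was the one that rose, to 11.1, 12.6 and 10.9 CPM in Q175HD/SUMO-KO, against 7.37, 8.04 and 6.04 CPM in WT (log2 fold change 0.69, SE 0.16, edgeR adjusted p = 0.0169). Ppp1r1b, Rgs4, Rgs11 and Rgs19 lost their calls in at least 1 of the 6 fits without 1 library (edgeR adjusted p at most 0.15, for Rgs11 without WT 2). The count of dopamine and cAMP falls was 8 without Q175HD/SUMO-KO 1 or WT 1, 10 with the cortical covariate and 3 with WT 3 as the only WT library, and RGS falls numbered 4 and 2 in the last of these.

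Among receptors for glutamate 12 of 24 genes fell (50%, beside 5.07% of all genes tested) and 0 rose (median -0.42). The metabotropic receptors Grm3 (-0.68, SE 0.09), Grm4 (-0.70, SE 0.12) and Grm8 (-0.56), the NMDA receptor subunits Grin1 (-0.39), Grin2a (-0.65, SE 0.10), Grin2b (-0.67, SE 0.11) and Grin2c (-0.56), and the AMPA subunit Gria3 (-0.43) were among them. Grm3 was at 128, 116 and 112 CPM in Q175HD/SUMO-KO, against 183, 182 and 204 CPM in WT (edgeR adjusted p = 0.000543), without overlap. The count of glutamate receptor falls was 2 with the cortical covariate and 3 with WT 3 as the only WT library, the medians then being -0.33 and -0.47. Of 15 GABA receptor genes 2 fell and 0 rose (median -0.03), the delta subunit Gabrd, which sits in extrasynaptic receptors, at 57.7, 45 and 59.9 CPM in Q175HD/SUMO-KO, against 80.9, 95.3 and 114 CPM in WT (log2 fold change -0.84, SE 0.13, edgeR adjusted p = 0.00189), and the GABA-B subunit Gabbr2 (-1.02, SE 0.22). Thus 13.3% of the GABA receptor genes were called, beside 8.44% of all genes tested. Serotonin receptors moved in both directions, and 36.4% of those tested were called. Of 11 (median -0.60), Htr1b (-1.06, SE 0.24), Htr4 (-0.76, SE 0.21) and Htr6 (-0.93, SE 0.22) fell and Htr2c rose, to 204, 171 and 199 CPM in Q175HD/SUMO-KO, against 103, 70.9 and 71.5 CPM in WT (log2 fold change 1.23, SE 0.19, edgeR adjusted p = 0.00201). Q175HD/SUMO-KO 2 and WT 3, which held the least choroid plexus RNA, a rich source of Htr2c, stood at 171 and 71.5 CPM of it. Of 17 neuropeptide precursors 5 fell (29.4%) and 0 rose (median -0.39): Penk, Pdyn, nociceptin (Pnoc, -1.92, SE 0.41), neuropeptide Y (Npy, -0.47, SE 0.12) and somatostatin (Sst, -0.39, SE 0.10). The neuropeptide count was 2 without Q175HD/SUMO-KO 1 or WT 1 or WT 2 and 3 without Q175HD/SUMO-KO 3 or WT 3. Gabbr2, Htr1b, Htr4, Htr6, Npy and Sst lost their calls in at least 1 of the 6 fits without 1 library (edgeR adjusted p at most 0.131, for Npy without WT 1).

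Calls among ion channels were falls with 1 exception. Among 47 potassium channel genes 21 fell (44.7%, beside 5.07% of all genes tested) and 0 rose. Of the 47, 44 had a negative log2 fold change, and the median was -0.48. Kcnip2, a partner of A-type channels, was at 143, 127 and 135 CPM in Q175HD/SUMO-KO, against 244, 242 and 278 CPM in WT (log2 fold change -0.91, SE 0.10, edgeR adjusted p = 0.000212). Kcng4, a silent subunit that modifies other potassium channels, was at 0.643, 2.61 and 1.92 CPM in Q175HD/SUMO-KO, against 9.38, 6.37 and 10.4 CPM in WT (log2 fold change -2.33, SE 0.46, edgeR adjusted p = 0.00929). Kcnh4 (-0.91), Kcnc4 (-1.33), Kcnk9 (-1.23), Kcna1 (-0.76) and Kcnj4 (-0.59) were called lower as well. Kcng4 is not on the list and was named for the size of its fall. Among 27 calcium channel genes 10 fell (37%) and 0 rose (median -0.43). The falls included the intracellular release channels Ryr2 (-0.86, SE 0.12) and Itpr1 (-0.68, SE 0.11) beside Ryr1. The L-type subunit Cacna1c (-0.60), the R-type subunit Cacna1e (-0.59), the auxiliary subunit Cacnb2 (-0.73, SE 0.09) and Cacng4 (-0.90) were among them too. Of 11 sodium channel genes (median -0.09) 3 fell, Scn4b, Scn2b (-0.61, SE 0.15) and Scn8a (-0.43, SE 0.09), and Scn3b rose (0.40, SE 0.09). The share called was 36.4%, beside 8.44% of all genes tested. Kcnc4, Kcnk9, Scn2b, Scn8a and Scn3b lost their calls in at least 1 of the 6 fits without 1 library (edgeR adjusted p at most 0.113, for Kcnc4 without Q175HD/SUMO-KO 1). The potassium channel count was 9 without Q175HD/SUMO-KO 1, 11 without WT 1 and 13 without WT 2, and counts of falls with the cortical covariate were 8 for potassium, 2 for calcium and 1 for sodium channels.

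Calls among transmitter release, activity and clock genes were mostly falls. Of 39 synaptic vesicle and release genes 9 fell and 1 rose (median -0.27), so 25.6% were called, beside 8.44% of all genes tested. The calcium sensors Syt2 (-1.16, SE 0.25), Syt12 (-0.84, SE 0.10), Syt7 (-0.50) and Syt1 (-0.44), the active zone proteins Bsn (-0.94, SE 0.20), Rims1 (-0.64, SE 0.10) and Unc13a (-0.61, SE 0.15), the membrane fusion protein Stx1a (-0.80, SE 0.22) and Rab3b (-0.57) fell, and Syt4 rose (0.38, SE 0.11). Stx1a and Unc13a had values near 0 with the cortical covariate (0.08 and -0.03), and 3 falls were called in that fit. The count of release genes that fell was 2 without Q175HD/SUMO-KO 1 and 4 without WT 1. Of 30 immediate early genes 3 fell, Homer1 (-0.85, SE 0.19), the phosphatases Dusp1 (-0.68, SE 0.16) and Dusp6 (-0.60, SE 0.14), while the nuclear receptor Nr4a3 rose (0.62, SE 0.17). In all 13.3% of these genes were called, beside 8.44% of all genes tested. The list median was -0.44, and -0.185 without WT 1. Of 24 circadian clock genes 8 fell (33.3%, beside 5.07% of all genes tested) and 0 rose (median -0.26). The clock output factor Dbp was at 55, 44.5 and 71.9 CPM in Q175HD/SUMO-KO, against 92, 116 and 118 CPM in WT (log2 fold change -0.92, SE 0.16, edgeR adjusted p = 0.00468), its relatives Hlf (-0.78, SE 0.16) and Tef (-0.42) fell, and so did Npas2 (-1.05, SE 0.11), Nr1d1 (-0.85, SE 0.15), Ciart (-1.20, SE 0.21), Usp2 (-0.62, SE 0.11) and Bhlhe40 (-0.42). The hour at which tissue was taken is not given in the labels, and its part in these differences was not tested. Syt2, Bsn, Unc13a, Stx1a, Syt4, Homer1, Dusp1, Dusp6 and Nr4a3 lost their calls in at least 1 of the 6 fits without 1 library (edgeR adjusted p at most 0.214, for Syt4 without Q175HD/SUMO-KO 3).

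In the other direction, transcription factors of the embryo that WT striatum hardly expresses were present in every Q175HD/SUMO-KO library. Hoxc4 (ENSMUSG00000075394, chromosome 15, 103018934 to 103036852, plus strand) was at 8.44, 15 and 9.8 CPM in Q175HD/SUMO-KO and had 0 reads in WT, at least 135-fold higher when the WT group is set at the 3 reads over the group that a count of 0 allows (edgeR adjusted p = 4.06e-05). Hoxc8 (1.45, 8.34 and 2.83 CPM), Hoxd8 (2.17, 3.54 and 3.12 CPM) and Onecut1 (4.58, 3.37 and 3.31 CPM) also had 0 reads in WT and were at least 49.8-fold, 36.7-fold and 46.15-fold higher. These floors cover counting error only. Hoxc5 was at 7.96, 17.3 and 8.59 CPM in Q175HD/SUMO-KO, against 0, 0.0838 and 0 CPM in WT, Hoxc6 at 2.17, 6.99 and 2.4 CPM in Q175HD/SUMO-KO, against 0, 0 and 0.0745 CPM in WT, and Pax2, a factor of midbrain and kidney development, at 1.37, 4.29 and 2.04 CPM in Q175HD/SUMO-KO, against 0, 0 and 0.0745 CPM in WT, each with 1 read in all in WT. The 4 Hoxc genes lie in 1 cluster on chromosome 15, and the annotated span of Hoxc5 covers Hoxc6 and Hoxc8 on the same strand, so their reads cannot be fully told apart. Hoxc8, Hoxc6 and Pax2 were highest in Q175HD/SUMO-KO 2.

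Lmx1b (ENSMUSG00000038765, chromosome 2, 33560965 to 33640511, minus strand), a LIM homeobox factor of limb, midbrain and serotonin neurons, was at 10.6, 15.2 and 11.8 CPM in Q175HD/SUMO-KO, against 0.167, 0.168 and 0 CPM in WT (log2 fold change 6.74, SE 0.40, edgeR adjusted p = 1.6e-06). Wt1 (ENSMUSG00000016458, chromosome 2, 105126529 to 105173616, plus strand), a zinc finger factor of kidney and gonad, was at 7.16, 10.1 and 7.15 CPM in Q175HD/SUMO-KO, against 0.0837, 0.251 and 0.0745 CPM in WT (log2 fold change 5.82, SE 0.45, edgeR adjusted p = 1.43e-05). Shox2, a factor of limb, heart and thalamus, was at 14.2, 18 and 20.7 CPM in Q175HD/SUMO-KO, against 1.09, 0.168 and 3.06 CPM in WT (log2 fold change 3.58, SE 0.70, edgeR adjusted p = 0.0134), where the WT libraries themselves ranged widely and Rsrc1 overlaps on the other strand. Pou4f1 (2.01, 4.46 and 3.43 CPM in Q175HD/SUMO-KO, 0.419, 0 and 0 CPM in WT), Nkx6-1 (1.37, 0.505 and 2.52 CPM in Q175HD/SUMO-KO, 0, 0.168 and 0.0745 CPM in WT), Irx5 (2.02, SE 0.43), Alx4 (1.76, SE 0.49) and Pax6 (0.67, SE 0.14) rose, and the striatal and forebrain factor Six3 fell (-0.65, SE 0.17). Of 123 developmental factors listed outside the Hox clusters 50 had enough reads to be tested, 10 of which rose and 1 fell. In all 22% of the 50 were called, beside 8.44% of all genes tested. Onecut1, Pax2, Nkx6-1, Lmx1b, Wt1 and Pou4f1 had at most 5 reads over the 3 WT libraries. They entered the test through the knock-in libraries, so that they were high there was a condition of being tested. Of 39 Hox genes only 5 were tested. The 5 named above entered the test through the knock-in libraries alone, so that they were high there was a condition of being measured, and the other 34 stayed under the read filter. In all, 11 called genes had at most 3 reads over the 3 WT libraries, 8 of them not predicted genes. Shox2 and Six3 lost their calls in at least 1 of the 6 fits without 1 library (edgeR adjusted p at most 0.119, for Six3 without Q175HD/SUMO-KO 1).

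Measured per length, these factors stayed far below the most abundant projection neuron genes but not below all of them. In the authors' deposited TPM (transcript abundance scaled by gene length and library total), Hoxc4 was at 13 ± 5.2 TPM in Q175HD/SUMO-KO and 0 ± 0 TPM in WT, Shox2 at 15.7 ± 2.1 TPM in Q175HD/SUMO-KO and 1.37 ± 1.4 TPM in WT and Lmx1b at 7.71 ± 2.12 TPM in Q175HD/SUMO-KO and 0.0727 ± 0.0629 TPM in WT (SD, n = 3 each). Penk was at 526 ± 36.1 TPM in Q175HD/SUMO-KO and 1398 ± 186 TPM in WT, and Pde10a at 150.2 ± 31.7 TPM in Q175HD/SUMO-KO and 488 ± 22.3 TPM in WT. Even where lowered, Penk and Pde10a thus stood well above the developmental factors on the TPM scale. Ryr1 was at 2.05 ± 0.556 TPM in Q175HD/SUMO-KO and 17 ± 0.748 TPM in WT, and Gpx6 at 0.531 ± 0.187 TPM in Q175HD/SUMO-KO and 16.9 ± 5.04 TPM in WT, so both were lower than Hoxc4, Shox2 and Lmx1b in Q175HD/SUMO-KO.

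**Figure D3:**
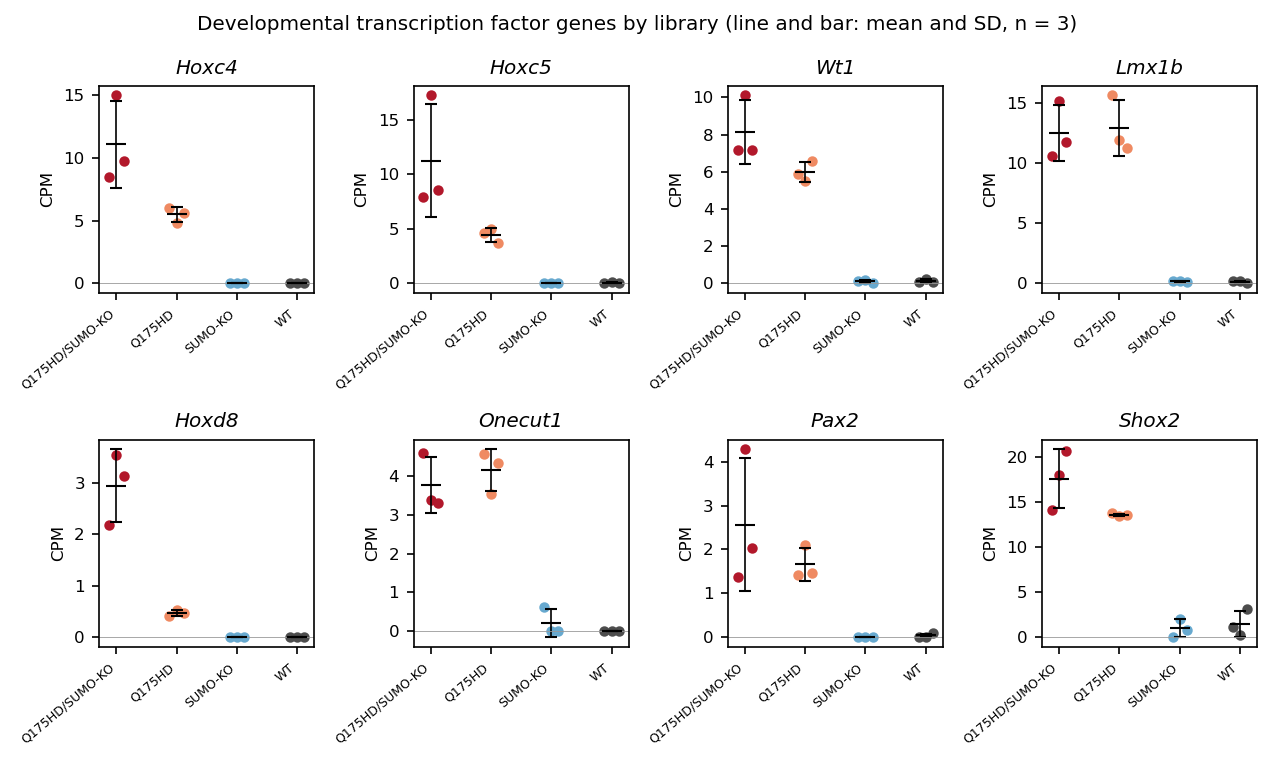
CPM of 8 developmental transcription factor genes in each library (points), with the mean and SD (n = 3) as a line and bar, for Q175HD/SUMO-KO, Q175HD, SUMO-KO and WT. Hoxc4 and Hoxd8 have 0 reads in every SUMO-KO and WT library, and the Q175HD/SUMO-KO values run from 8.44 to 15 CPM for Hoxc4.

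Genes switched off were fewer, with 6 called genes at 3 or fewer reads over the 3 Q175HD/SUMO-KO libraries, 3 of them not predicted genes. Wnt8b, a secreted signal of the developing forebrain, was at 0.241, 0 and 0 CPM in Q175HD/SUMO-KO, against 2.93, 4.02 and 4.62 CPM in WT (edgeR adjusted p = 0.000204). The nuclear body proteins Sp110 (0, 0.0842 and 0 CPM in Q175HD/SUMO-KO, against 1.09, 1.76 and 1.27 CPM in WT) and Sp140 (0.0804, 0.0842 and 0 CPM in Q175HD/SUMO-KO, against 0.419, 0.754 and 0.745 CPM in WT) were the other 2 (edgeR adjusted p = 0.00594 for Sp110 and 0.0128 for Sp140). Q175HD libraries held 1.4, 2.18 and 1.33 CPM of Sp110 and 0.913, 1.13 and 0.864 CPM of Sp140. The calls of Wnt8b, Sp110 and Sp140 held in all 6 fits that left out 1 library. Sp110 and Sp140 lost theirs with the cortical covariate (edgeR adjusted p = 0.121 and 0.133) and in the 9 libraries with low Xist. Sp140 had only 5, 9 and 10 reads in the WT libraries.

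Among 42 Polycomb genes, whose products keep developmental loci silent, 6 rose and 1 fell (median 0.08). The share called was 16.7%, beside 8.44% of all genes tested. Cbx8, a subunit of Polycomb repressive complex 1, was at 20.6, 19.3 and 20.6 CPM in Q175HD/SUMO-KO, against 7.54, 8.04 and 7.97 CPM in WT (log2 fold change 1.36, SE 0.11, edgeR adjusted p = 2.28e-05). Sfmbt2, a Polycomb-associated protein in a locus rich in microRNAs, was at 18.2, 24.9 and 16.9 CPM in Q175HD/SUMO-KO, against 4.52, 3.1 and 2.61 CPM in WT (log2 fold change 2.55, SE 0.21, edgeR adjusted p = 2.3e-05). Both had replicates close together and no overlap between groups, and Bmi1 (0.54, SE 0.10), Eed (0.62, SE 0.13) and Phf1 (0.55, SE 0.10) rose too. Epop, a partner of Polycomb repressive complex 2, fell to 4.18, 5.56 and 7.87 CPM in Q175HD/SUMO-KO, against 28.2, 15.5 and 13.6 CPM in WT (log2 fold change -1.69, SE 0.29, edgeR adjusted p = 0.0041). Of 57 clustered protocadherins, cell surface proteins that neurons choose in individual combinations, 11 rose (19.3%, beside 3.37% of all genes tested) and 0 fell. The median was 0.34, but 0.03 without Q175HD/SUMO-KO 2. The mean log2 differences of the 3 Q175HD/SUMO-KO libraries from WT were 0.234, 0.583 and -0.069. All 11 belong to the beta cluster, among them Pcdhb9 (0.88, SE 0.13), Pcdhb20 (0.78, SE 0.11), Pcdhb21 (0.92, SE 0.20), Pcdhb2 (0.91, SE 0.21) and Pcdhb16 (0.63). Pcdhb9 was at 27.8, 31.2 and 29.9 CPM in Q175HD/SUMO-KO, against 13.5, 18.9 and 16 CPM in WT (edgeR adjusted p = 0.00127). The beta genes are near copies of one another, so counts may be split among them in ways not given in the sources used here. Eed, Pcdhb21 and Pcdhb2 lost their calls in at least 1 of the 6 fits without 1 library (edgeR adjusted p at most 0.0657, for Pcdhb2 without WT 1). The protocadherin count was 5 without Q175HD/SUMO-KO 1 or WT 1 and 6 without WT 3, and with the cortical covariate 2 Polycomb genes and 1 protocadherin were called higher. With that covariate 0 Polycomb genes were called lower, and Epop was at -1.05 (edgeR adjusted p = 0.372).

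Of 30 SUMO pathway genes 5 were called, 16.7% beside 8.44% of all genes tested. There were 3 that rose, among them the proteases Senp6 (0.26, SE 0.07) and Uspl1 (0.47, SE 0.10), and 2 fell, among them the E3-like factor Zmiz1 (-0.78, SE 0.19), and the median was 0.13. With the cortical covariate 0 rose and 1 fell. Of 34 huntingtin partners and CAG repeat modifiers (median 0.08, 14.7% called), Hap1, the huntingtin-associated protein, rose to 154, 249.9 and 158 CPM in Q175HD/SUMO-KO, against 65.5, 76.6 and 104 CPM in WT (log2 fold change 1.19, SE 0.21, edgeR adjusted p = 0.00701). Rrm2b also rose (0.38, SE 0.11), and Htt, Rasd2 and Rasd1 (-1.02, SE 0.28) fell. Replicate 2 had the highest Hap1 among the 3 Q175HD/SUMO-KO libraries, and the gene Gm20394 overlaps it. Senp6, Zmiz1, Rrm2b and Rasd1 lost their calls in at least 1 of the 6 fits without 1 library (edgeR adjusted p at most 0.245, for Rrm2b without Q175HD/SUMO-KO 3).

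Protein synthesis and turnover genes showed small shifts of one sign. Among 78 cytosolic ribosomal protein genes 14 rose (17.9%, beside 3.37% of all genes tested) and 0 fell. All 78 had a positive log2 fold change, and the median was 0.28. Rpl11 was at 94.4, 103 and 105 CPM in Q175HD/SUMO-KO, against 66.9, 74.8 and 76.5 CPM in WT (log2 fold change 0.47, SE 0.11, edgeR adjusted p = 0.017), and Rps14 at 213, 245 and 247 CPM in Q175HD/SUMO-KO, against 157, 171 and 182 CPM in WT (log2 fold change 0.47, SE 0.12, edgeR adjusted p = 0.0257). Among 38 proteasome genes 7 rose (18.4%) and 0 fell (median 0.24). The largest rise was that of the activator subunit Psme1, at 29.8, 26.7 and 29.9 CPM in Q175HD/SUMO-KO, against 15, 14.7 and 17.9 CPM in WT (log2 fold change 0.86, SE 0.11, edgeR adjusted p = 0.000463). Ribosomal rises numbered 3 without Q175HD/SUMO-KO 1, 5 without Q175HD/SUMO-KO 2, 0 without Q175HD/SUMO-KO 3, 1 without WT 1 and 2 without WT 2, 7 with median-ratio size factors and 0 with the cortical covariate. The proteasome count was 2 without Q175HD/SUMO-KO 1, 1 without Q175HD/SUMO-KO 3 or WT 1, 4 without WT 2 and 3 without WT 3 and 0 with the cortical covariate. Of 74 nuclear-encoded oxidative phosphorylation genes 1 rose, the complex III subunit Uqcrh (0.47, SE 0.13), and 0 fell (median 0.15). Median-ratio size factors ended the Uqcrh call. Rpl11, Rps14 and Uqcrh lost their calls in at least 1 of the 6 fits without 1 library (edgeR adjusted p at most 0.177, for Uqcrh without WT 1). Of 10 mitochondrially encoded mRNAs 0 were called by edgeR (median -0.18, mt-Co1 0.05, SE 0.17), although the mitochondrial rRNA mt-Rnr2 rose (log2 fold change 0.61, SE 0.17, edgeR adjusted p = 0.0431).

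Stress and degradation pathways had 0% to 9.3% of their genes called, beside 8.44% of all genes tested, and cholesterol synthesis had 23.1%. The mTOR list had 2 falls among 39 genes (median 0.02), among them the kinase Akt2 (-0.63, SE 0.12). Of 43 autophagy genes (median 0.02) Atg5 (0.51, SE 0.09), Atg4a (0.85, SE 0.24) and Wdr45b (0.29, SE 0.08) rose and Pik3r4 (-0.33, SE 0.08) fell. None of 43 lysosome genes was called by edgeR (median 0.11), with Ctsb at -0.05, SE 0.12 and Psap at -0.04, SE 0.12. Of 37 chaperones (median 0.10) Hspa13 rose (0.49, SE 0.12), while Hspa8 (0.26, SE 0.20) and Hsp90aa1 (0.22, SE 0.17) did not pass. Of 36 unfolded protein and integrated stress response genes (median -0.03) the sensor Atf6 fell, to 86.6, 84.9 and 85.7 CPM in Q175HD/SUMO-KO, against 153, 134 and 134 CPM in WT (log2 fold change -0.71, SE 0.09, edgeR adjusted p = 0.000543), and the chaperone Hspa5 did not pass (0.10, SE 0.39). Of 35 p53 target and cell death genes (median 0.05) the cell cycle inhibitor Cdkn2a (2.96, SE 0.70) and the DNA polymerase Polk (0.50, SE 0.10) rose. Of 26 cholesterol synthesis genes 6 fell and 0 rose (median -0.29), among them the regulators Srebf2 (-0.62, SE 0.12) and Insig1 (-0.88, SE 0.11) and the enzymes Dhcr7 (-0.62, SE 0.11) and Acat2 (-0.44, SE 0.11). The cholesterol median was -0.18 without Q175HD/SUMO-KO 2. Atg4a, Wdr45b, Pik3r4, Hspa13, Cdkn2a, Polk and Acat2 lost their calls in at least 1 of the 6 fits without 1 library (edgeR adjusted p at most 0.189, for Wdr45b without Q175HD/SUMO-KO 3). The cholesterol count was 3 without Q175HD/SUMO-KO 1 or Q175HD/SUMO-KO 2 or WT 2.

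Immune lists had 0% to 6.06% of their genes called, beside 8.44% of all genes tested. Astrocyte (20%), myelin (20.8%) and interneuron genes (22.2%) had more, most of them falls. Of 41 interferon response genes 0 were called by edgeR (median 0.23), and B2m was at 0.23, SE 0.18. Of 34 microglia genes (median 0.01) the receptor Clec7a rose (1.47, SE 0.35) and Olfml3 fell (-0.50, SE 0.14), with summed levels of 1446, 1445 and 1715 CPM in Q175HD/SUMO-KO and 1475, 1385 and 1583 CPM in WT. Of 33 cytokine, complement and NF-kB genes (median -0.01) Relb rose (0.88, SE 0.21) and the neuronal chemokine Cx3cl1 fell (-1.01, SE 0.16). Of 25 astrocyte genes (18 with a negative log2 fold change, median -0.23) the intermediate filament Vim rose (0.73, SE 0.13), while the glutamate transporter Slc1a2 (-0.61, SE 0.11), Atp1b2 (-0.94, SE 0.22), Slc4a4 (-0.61, SE 0.13) and Mfge8 (-0.59, SE 0.14) fell. Of 24 myelin genes 5 fell and 0 rose, 22 had a negative log2 fold change and the median was -0.46, or -0.295 without Q175HD/SUMO-KO 2: Mobp (-0.77, SE 0.20), Mal (-0.61, SE 0.17), Hapln2 (-0.83, SE 0.22), Fa2h (-0.71, SE 0.19) and Klk6 (-1.14, SE 0.30). Their summed level was 8762, 5466 and 9591 CPM in Q175HD/SUMO-KO, lowest in replicate 2, against 11810, 10410 and 9910 CPM in WT, and the count of myelin falls was 0 without Q175HD/SUMO-KO 1 or WT 1 or WT 2 and 1 without Q175HD/SUMO-KO 2 or WT 3. Of 15 oligodendrocyte precursor genes (median -0.18, 13.3% called) Cacng4 and Cspg4 (-0.59, SE 0.17) fell. Of 18 interneuron genes 4 fell and 0 rose (17 with a negative log2 fold change, median -0.45), Kcnc2 (-1.03, SE 0.27), Kcnc1 (-0.79, SE 0.10), Npy and Sst, and the count was 1 without Q175HD/SUMO-KO 1 or WT 1 or WT 2 or WT 3 and 2 without Q175HD/SUMO-KO 3. Clec7a, Olfml3, Relb, Atp1b2, Mfge8, Mobp, Mal, Hapln2, Fa2h, Klk6, Cspg4 and Kcnc2 lost their calls in at least 1 of the 6 fits without 1 library (edgeR adjusted p at most 0.151, for Hapln2 without WT 1).

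Markers of tissue beside the striatum moved with the groups. Of 24 cortical excitatory neuron genes 7 fell (29.2%, beside 5.07% of all genes tested) and 0 rose (median -0.75). The summed level of the 24 was 639.4, 705.9 and 600.4 CPM in Q175HD/SUMO-KO and 1525, 1132 and 823 CPM in WT, without overlap. Cplx3, a complexin of deep cortical layers, was at 1.04, 0.59 and 0.601 CPM in Q175HD/SUMO-KO, against 19.3, 16.9 and 8.05 CPM in WT (log2 fold change -4.30, SE 0.40, edgeR adjusted p = 6.41e-05). Ctgf, also of deep cortical cells, was at 3.06, 5.3 and 2.4 CPM in Q175HD/SUMO-KO, against 50.2, 31.8 and 16.9 CPM in WT (log2 fold change -3.21, SE 0.46, edgeR adjusted p = 0.00201), and Nptx1 (-2.13, SE 0.51), Nxph3 (-2.22, SE 0.46), Rspo1 (mean 1.38 ± 0.638 CPM in Q175HD/SUMO-KO and 5.58 ± 1.53 CPM in WT), Hs3st4 (-1.10, SE 0.13) and Otof (-0.63, SE 0.15) fell as well. Slc17a7, which loads glutamate into vesicles in the cortex, stood at 52.8, 106 and 19.2 CPM in Q175HD/SUMO-KO, against 384, 245 and 106 CPM in WT and did not pass (log2 fold change -2.05, SE 0.78); no library was at 0. WT 1 held the most and WT 3 the least of these genes among the WT libraries. The part of cortical tissue in the falls of receptor, channel and synaptic genes was not tested, beyond counts with the cortical covariate. The covariate did not overlap between the groups, so a call lost with it cannot be assigned to cortical tissue. With the covariate, 0 serotonin receptors were called in either direction. Falls then numbered 1 among neuropeptide precursors and 0 among interneuron genes. Myelin genes had 0 falls and astrocyte genes 1. Immediate early genes had 0 falls, cholesterol synthesis genes 2 and clock genes 5. Nptx1 and Nxph3 lost their calls in at least 1 of the 6 fits without 1 library (edgeR adjusted p at most 0.119, for Nptx1 without Q175HD/SUMO-KO 1), and the count of cortical genes that fell was 4 without Q175HD/SUMO-KO 1.

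Transcripts of other surrounding tissue differed between libraries of the same genotype. The summed level of 19 choroid plexus genes (median 0.02) was 6835, 340.2 and 4453 CPM in Q175HD/SUMO-KO and 6403, 3230 and 406.9 CPM in WT, with 0 calls by edgeR. Ttr, their main transcript, was at 4721, 45.6 and 2863 CPM in Q175HD/SUMO-KO, against 3724, 1733 and 36.3 CPM in WT. Of 18 thalamic, septal and pallidal genes 3 rose, Shox2, Ngb (2.65, SE 0.47) and Trpc4 (0.57, SE 0.16), and 0 fell (median -0.20). Of 26 meningeal and collagen genes (median 0.01) Col6a2 rose (0.94, SE 0.21) and Fn1 (-0.67, SE 0.17) and Col6a3 (-1.02, SE 0.23) fell, and Col1a1 reached 82.8 CPM in Q175HD/SUMO-KO 1 and at most 9.21 CPM in the other 5 libraries. Of 21 ependymal genes 0 were called by edgeR (median 0.33, Foxj1 0.02, SE 0.23). Of 26 endothelial and pericyte genes (median -0.15) Cspg4 fell. Of 5 blood genes tested (median -0.52) Hba-a2 fell (-1.18, SE 0.31). The share called was 16.7% for the thalamic, septal and pallidal list and 11.5% for the meningeal one. It was 3.85% for the endothelial list and 20% for the blood list, beside 8.44% of all genes tested. Trpc4, Col6a2, Fn1, Col6a3 and Hba-a2 lost their calls in at least 1 of the 6 fits without 1 library (edgeR adjusted p at most 0.168, for Trpc4 without Q175HD/SUMO-KO 1).

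**Figure D4:**
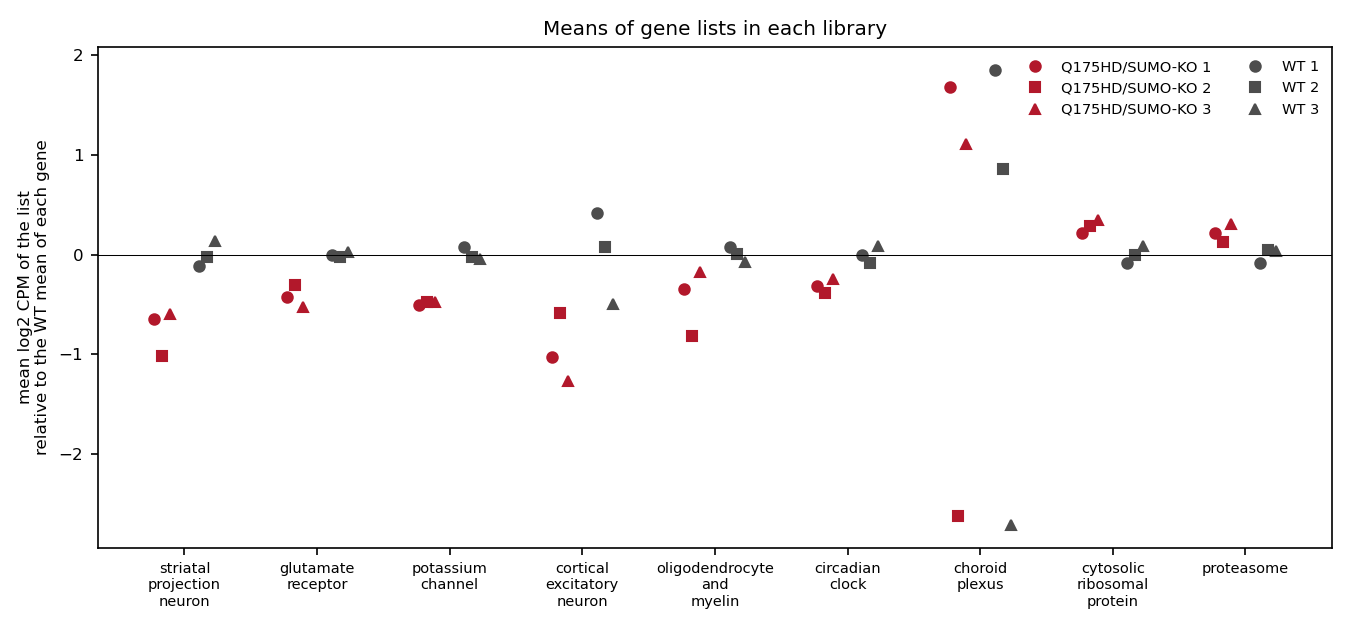
Mean log2 CPM of 9 gene lists in each Q175HD/SUMO-KO library (red) and each WT library (grey), relative to the WT mean of each gene. The projection neuron means are -0.65, -1.02 and -0.60 in Q175HD/SUMO-KO and -0.12, -0.02 and 0.14 in WT; the cortical means spread among the WT libraries, and the choroid plexus means split both groups.

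**Figure D5:**
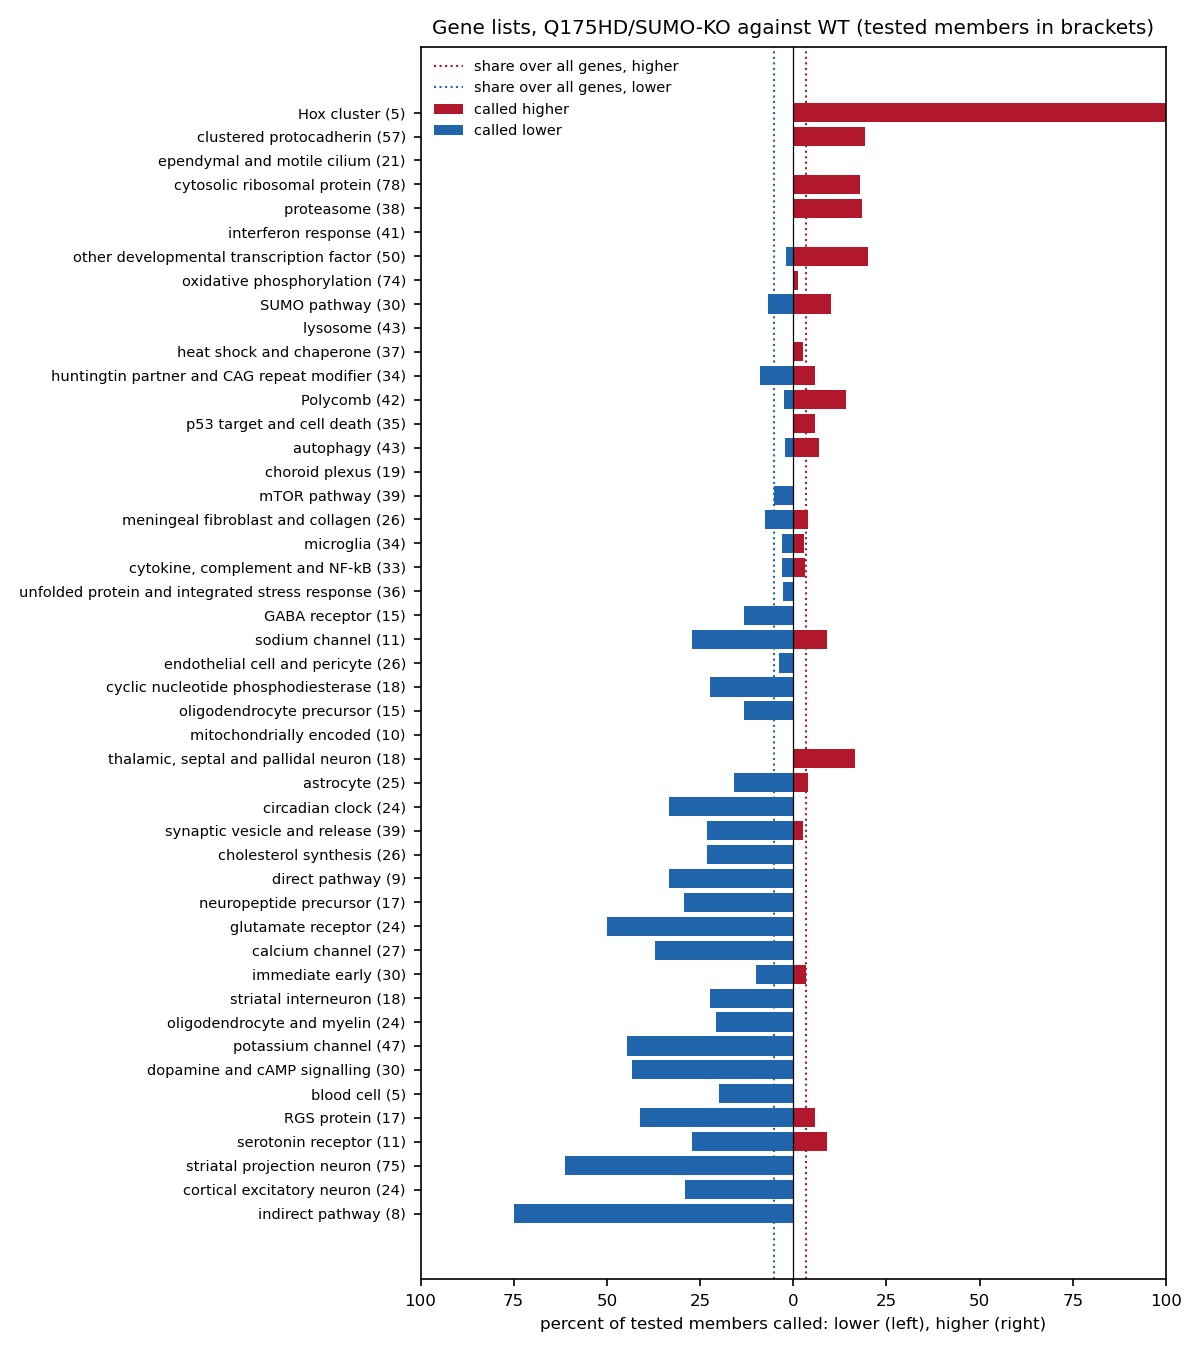
Percent of the tested members of each of the 47 lists called higher (red, right) and lower (blue, left) in Q175HD/SUMO-KO against WT, in order of the list's median log2 fold change, with the number tested in brackets. Dotted lines mark the shares over all genes tested, 3.37% higher and 5.07% lower; the projection neuron, indirect pathway, glutamate receptor, potassium channel and dopamine and cAMP lists lie far to the left.

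Among the 15 largest rises and falls by the naming rule were genes of no list. Rises included AW551984 (2.77, SE 0.42), Tmc3, a member of the transmembrane channel-like family (2.16, SE 0.26), the cardiac troponin Tnnt2 (2.11, SE 0.30), the antisense transcript Emx2os (1.98, SE 0.20), the synaptic adhesion protein Slitrk6 (1.73, SE 0.36), the orphan receptor Gpr101 (1.63, SE 0.37), Pcdh20 (1.35, SE 0.22) and Magee2 (1.30, SE 0.21). Tmc3 was at 11.3, 10.2 and 10.3 CPM in Q175HD/SUMO-KO, against 2.85, 2.18 and 2.09 CPM in WT (edgeR adjusted p = 0.00031), with both groups tight. Falls included the orphan receptor Gpr139 (-3.11, SE 0.37), the phosphatase Ptpn7 (-2.77, SE 0.31), the endopeptidase Phex (-2.48, SE 0.32), Sec14l3 (-2.40, SE 0.43), the copine Cpne9 (-2.38, SE 0.25), the adrenergic receptor Adra1b (-2.13, SE 0.27) and the angiotensin-(1-7) receptor Mas1 (-2.09, SE 0.28). Gpr139 was at 3.06, 0.59 and 2.77 CPM in Q175HD/SUMO-KO, against 14.6, 21 and 20.9 CPM in WT (edgeR adjusted p = 0.000403), lowest in Q175HD/SUMO-KO 2. Of the 186 called genes named by the rule, 104 were called in every fit that left out 1 library and 82 lost the call in at least 1. Slitrk6 and Gpr101 lost their calls in at least 1 of the 6 fits without 1 library (edgeR adjusted p at most 0.0808, for Gpr101 without WT 2). With the cortical covariate, the rises of Slitrk6 (0.67), Gpr101 (0.92), Pcdh20 (1.20) and Magee2 (1.31) were not called. Nor were the falls of Phex (-1.74), Adra1b (-1.59) and Mas1 (-1.39). The other rises and falls named here kept their calls in that fit.

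Set against the knock-in alone, Q175HD/SUMO-KO differed at 6 genes (0.0337% of those tested), 4 higher (0.0225%) and 2 lower (0.0112%), with 939 at an unadjusted p under 0.05 and 19 calls by DESeq2. All Q175HD libraries were of male type (Xist 21, 17 and 2 reads, Ddx3y 1352, 1138 and 1470 reads). SUMO-KO 2 was of female type (19854 reads of Xist). Comparisons with Q175HD, and the interaction, were thus not balanced for sex. The GABA-A receptor subunit Gabra2 was at 109.7, 152 and 106 CPM in Q175HD/SUMO-KO and 48.3, 39.4 and 48.8 CPM in Q175HD (log2 fold change 1.43, SE 0.19, edgeR adjusted p = 0.0187). Nnt, the mitochondrial transhydrogenase, was at 42.4, 38.4 and 39.2 CPM in Q175HD/SUMO-KO and 27.8, 25.4 and 24.2 CPM in Q175HD (log2 fold change 0.63, SE 0.09, edgeR adjusted p = 0.0258). Nr4a3, a nuclear receptor, was at 37.5, 32.4 and 34.6 CPM in Q175HD/SUMO-KO and 13.8, 10.9 and 16.3 CPM in Q175HD (log2 fold change 1.35, SE 0.18, edgeR adjusted p = 0.0178). Gabra2 and Nnt are known to carry alleles of low expression in the C57BL/6J substrain, and in neither did Q175HD/SUMO-KO differ from WT past the threshold (-0.05, SE 0.18 for Gabra2 and -0.17, SE 0.09 for Nnt); the part of substrain was not tested. The transcript 6820402A03Rik had 0 reads in Q175HD/SUMO-KO and was at 3.09, 3.23 and 3.46 CPM in Q175HD (edgeR adjusted p = 0.0258), and was named with Gabra2 and Nnt after their values were seen. The count was 1 without Q175HD/SUMO-KO 1, Q175HD 1 or Q175HD 2, 2 without Q175HD 3 and 3 without Q175HD/SUMO-KO 2.

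The comparison with SUMO-KO, which adds the knock-in where SUMO-1 is absent, gave 568 higher (3.19%) and 821 lower genes (4.61%), 7.81% in all, and the count was 747 without Q175HD/SUMO-KO 1, 821 without Q175HD/SUMO-KO 3, 847 without SUMO-KO 1 and 2395 without SUMO-KO 3. Among the 75 projection neuron genes 48 were lower and 1 higher there. The interaction term between the knock-in and the loss of SUMO-1, which asks whether the joint difference departs from the sum of the single ones on the log2 scale, had 0 calls (0%) by edgeR, 770 genes at an unadjusted p under 0.05 and 29 calls by DESeq2; without WT 3 edgeR called 34.

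Fold changes of the 3 genotypes against WT share the WT libraries and are given side by side. Q175HD against WT had 198 rises (1.11%) and 501 falls (2.82%), 3.93% in all, and SUMO-KO against WT 2 rises (0.0112%) and 6 falls (0.0337%), 0.045% in all, where 2395 genes had an unadjusted p under 0.05. Projection neuron genes had a median of -0.66 in Q175HD/SUMO-KO, -0.53 in Q175HD and 0.03 in SUMO-KO. For Ryr1 the log2 fold changes in this order were -2.99, -2.83 and 0.36, for Scn4b -2.30, -1.67 and -0.23, and for Lmx1b 6.74, 6.79 and 0.69. Hoxd8 was at 2.94 ± 0.701 CPM in Q175HD/SUMO-KO, 0.471 ± 0.0524 CPM in Q175HD and 0 in SUMO-KO and WT (SD, n = 3 each), and Hoxc4 was at 11.1 ± 3.46 CPM in Q175HD/SUMO-KO, 5.5 ± 0.63 CPM in Q175HD and 0 in SUMO-KO and WT. Neither differed between Q175HD/SUMO-KO and Q175HD past the threshold (edgeR adjusted p = 0.116 for Hoxd8 and 0.87 for Hoxc4). The cortical list stood apart from this order, with medians of -0.75 in Q175HD/SUMO-KO, -0.98 in Q175HD and -1.15 in SUMO-KO, and Cplx3 at -4.30, -3.35 and -3.42. Ribosomal protein medians were 0.28, 0.14 and 0.00, and myelin medians -0.46, -0.09 and -0.21.

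In the authors' deposited table of the same comparison, 554 genes were higher and 1263 lower past an adjusted p of 0.05. The calls that the authors' deposited table shared with edgeR numbered 1390, all in the same direction, 76.5% of the authors' calls and 92.5% of the edgeR calls.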

How the data were processed

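Total RNA of mouse striatum was sequenced in 12 libraries, 3 for each of the genotypes Q175HD/SUMO-KO, Q175HD, SUMO-KO and WT, and groups and replicate numbers were taken from the labels. Whole-number read counts per Ensembl gene were deposited by the authors for 53465 genes, and no column of another series was present (0 columns). The authors also deposited TPM values, used here only to compare levels between genes, and a table of log2 fold changes and p-values for Q175HD/SUMO-KO against WT with DESeq2 column names, per the file headers. Per the submitters' processing notes, the tools were DESeq2, Bowtie 1.1.2, STAR 2.5.2a and cutadapt 2.10, and the builds mm10 and GRCm38. The role of each tool, the gene counter, its handling of strand and of reads that match several genes, and the annotation were not given in the sources used here, so reads of overlapping, antisense and near-identical genes cannot be told apart. Symbols and positions came from GENCODE M21 (GRCm38), which held 53360 of the identifiers and 17772 of those tested; each gene, where 112 symbols were duplicated, was tested by identifier.

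From the deposited counts, edgeR 4.0.16 (R 4.3.3, limma 3.58.1) kept the 17796 genes that passed filterByExpr (minimum count 10, minimum total 15), scaled libraries by TMM and fitted the 4 group means to all 12 libraries with the quasi-likelihood test, with a common biological coefficient of variation of 0.171 and 8 residual degrees of freedom. Calls had a Benjamini-Hochberg adjusted p under 0.05 over all genes tested. An exact permutation test of 3 against 3 libraries cannot give a p below 0.1 and was not used. Tests were two-sided. The procedure was tested on simulated counts, with changes set in genes with a mean of at least 50 reads. It called 41.8% of the 1.5-fold changes, 85.1% of the 2-fold and 98.5% of the 4-fold ones, with 8 false calls. Changes of 1.5-fold or less can thus be missed.

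Genes named with values were the targeted genes and tissue markers, the 15 largest rises and 15 largest falls with a mean of at least 50 reads and no overlap of the groups, genes with at most 3 reads in 1 group (up to 12 in each direction), and up to 6 called members per direction of each of 47 lists, or up to 3 members by level where fewer than 2 passed, predicted genes and pseudogenes being left out. The rule also took up to 8 genes per direction called against WT and a single genotype, and up to 6 interactions. It named 221 genes, of which some are not reported here. Further called list members, and uncalled ones given as contrast, were named after their values were seen. The lists, the comparison and the alternatives were chosen with earlier results of these data known. Fits without 1 library in turn, and the other alternatives in the closing section, used the same counts and DESeq2 1.42.0.

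Replicate numbers 1, 2 and 3 recur in each genotype, and the labels do not say what a number marks. Deviations from the group means correlated between same-numbered Q175HD/SUMO-KO and WT libraries (r = 0.194, 0.344 and 0.108 across 16252 genes, which are not independent replicates) and r was -0.397 to 0.244 between differently numbered ones, the highest being Q175HD/SUMO-KO 3 with WT 1. As each same-numbered value was over 0.1, the numbers were treated as pairs in an alternative with the replicate as a block. RefSeq promoter windows covered 74.8% of the rises, 68.5% of the falls and 66% of all genes tested. That is under the 80% set as the minimum, so a check of promoter composition was void.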

Additional observations from a re-analysis of the deposited data

How the results depend on the processing

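Q175HD/SUMO-KO against WT had 1502 calls. It had 1404 with median-ratio size factors, 1317 with no filter on low counts, 1591 with a mean count of at least 50, 1921 by DESeq2, 1114 with the libraries of these 2 groups alone and 1543 with sex as a term, and 293 with a covariate for cortical neuron genes, 190 with WT 3 as the only WT library, 458 with the 9 low-Xist libraries and 94 when tested against a fold of 1.5. Leaving out 1 library gave 674 to 1160 calls. With the replicate block the count was 1693, holding 94.3% of the 1502, and of 186 called genes named by the rule Fa2h, Hapln2, Olfml3 and Rgs11 lost the call (4 genes); the block changed no other such call to not called. Q175HD/SUMO-KO against Q175HD, with 6 calls, had 18 with no filter, 19 by DESeq2, 11 with the libraries of the 2 groups alone, 1 with the cortical covariate, 2 against a fold of 1.5, 3 in the low-Xist libraries and 1 to 6 without 1 library. Q175HD/SUMO-KO against SUMO-KO, with 1389, had 407 with the libraries of the 2 groups alone, 123 against a fold of 1.5, 572 in the low-Xist libraries and 747 to 2395 without 1 library. The interaction, with 0, had 2 with no filter, 29 by DESeq2 and 0 to 34 without 1 library, and could not be fitted without the other groups. Slc17a7 reversed to 0.404 and Stx1a to 0.081 on the log2 scale with the cortical covariate, under which 119 of the 186 calls were lost and 67 kept. Slc17a7 belongs to the list whose mean was that covariate, as do Ctgf, Nptx1, Nxph3 and Rspo1 among the lost calls. That fit adjusted these genes for a mean that includes them, so it cannot test them. DESeq2 lost 1, Wdr45b, and gave no adjusted p for Cdkn2a, Nkx6-1 and Sp140. The causes were not tested, except that fits with fewer libraries have fewer residual degrees of freedom. The cortical covariate did not overlap between Q175HD/SUMO-KO and WT, so that fit has less power for this contrast. Calls were lost there also where the fold hardly moved, as for Magee2 (1.31, edgeR adjusted p = 0.0907). Depth limits the low genes most: those at 0 in WT are bounded by 3 reads over the group.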

Other observations

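Genes on the X chromosome had a larger share of rises than the genome. Of 557 tested, 55 rose and 10 fell in Q175HD/SUMO-KO against WT, so that 11.7% were called by edgeR at an adjusted p under 0.05, against 6.57% to 10.5% on the other chromosomes and 8.44% in all. Their median log2 fold change was 0.17, beside 0.05 for all genes, and 71.6% of them were positive, beside 55.9%. Q175HD/SUMO-KO and WT each held 1 library with high Xist. Counts of X-linked rises and falls were 15 and 4 in the 9 libraries with low Xist, 3 and 2 with the cortical covariate or with WT 3 as the only WT library, and rises numbered 18 without WT 1, 19 without Q175HD/SUMO-KO 3, 23 without WT 2, 27 without Q175HD/SUMO-KO 1, 40 without Q175HD/SUMO-KO 2 and 42 without WT 3.

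Several transcripts on chromosome 1 gave values that did not go with the SUMO-1 genotype in every library. The small nuclear RNA gene Gm25939 was at 2.49, 4.46 and 1.2 CPM in Q175HD/SUMO-KO, 252, 236 and 308 CPM in Q175HD, 3.58, 171 and 299 CPM in SUMO-KO and 284, 402 and 433 CPM in WT. The transcript 6820402A03Rik was at 0, 0 and 0 CPM in Q175HD/SUMO-KO, 3.09, 3.23 and 3.46 CPM in Q175HD, 0.105, 2.09 and 1.36 CPM in SUMO-KO and 3.43, 2.93 and 3.35 CPM in WT. In both, SUMO-KO 1 stood near the Q175HD/SUMO-KO libraries, whereas SUMO-KO 2 and SUMO-KO 3 were higher than every Q175HD/SUMO-KO library. Sp110 was at 0, 0.698 and 0.86 CPM in SUMO-KO. Gm25813, a small nuclear RNA gene on chromosome 8, was at 16.4, 23.1 and 10.8 CPM in Q175HD/SUMO-KO, 0.632, 0.451 and 1.4 CPM in Q175HD, 22.4, 10.3 and 0.358 CPM in SUMO-KO and 0.419, 0.251 and 0.447 CPM in WT. These genes were picked after their values were seen. Within 10 Mb of Htt, 190 genes were tested, of which 6 rose and 8 fell against WT (7.37%).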
